A study of Saccharomyces cerevisiae with 6 samples.

Results

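The genes described here are 10 genes of the phosphate (PHO) system of the budding yeast Saccharomyces cerevisiae, chosen by name: PHO84, PHO89, PHO5, PHO3, PHO11, PHO12, SPL2, VTC1, VTC3 and PHO8. They were chosen with earlier results of these data known, so their counts and medians beside those of all genes are descriptions. Each was measured by 1 probe, so they make up 10 of the 6256 genes on the array. Gene expression was measured on 6 one-colour (Cy3) Agilent arrays of total RNA. On xylose (50 g/L) RNA was taken after 9 h of fermentation, on glucose (50 g/L) after 3 h, with 3 arrays for each sugar. The 3 h come from the titles and the study's design, while another label of the glucose samples reads 9 h. Time in culture changed along with the sugar, so the parts of both cannot be told apart in any difference, which is always xylose minus glucose. Neither the strain nor the phosphate content of the medium is given in the sources used here. The labels do not say whether the replicates came from separate cultures. The spread between samples on which p-values here rest may thus be technical, though glucose replicate 2 stood apart, as described below.

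Yeast senses inorganic phosphate through a cyclin-dependent kinase, Pho85 with its cyclin Pho80. When phosphate is plentiful the kinase phosphorylates the transcription factor Pho4 and keeps it out of the nucleus. When phosphate runs short the inhibitor Pho81 blocks the kinase, and Pho4, together with the homeodomain factor Pho2, switches on transporters that take up phosphate, secreted phosphatases that free it from organic compounds, and enzymes that build the vacuolar store of polyphosphate. PHO84 is among the most strongly induced targets, and its product also acts as a phosphate sensor.

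Levels are log2 processed signals relative to the 75th percentile of the array, averaged over the spots of a probe. A gene was called when its adjusted p from limma, with Benjamini-Hochberg adjustment over all 5907 genes tested, was under 0.05. All 10 PHO genes passed the filter on dim probes, and all 60 of their levels were well above background, so none is a bound. A level is measured on RNA of the whole culture, and fewer cells expressing a gene cannot be told apart from less RNA per cell. The number of arrays limits the precision.

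One array stood apart. There were 41 genes whose level in glucose replicate 2 was over 8-fold away from that of all 5 other arrays, while no other array had more than 3 such genes. The leucine synthesis gene LEU2 and the sulfur assimilation gene MET17 stood there at 0.34 and 4.57, and were not well above background on the other 5 arrays, other glucose arrays included. Conversely the asparaginase gene ASP3-1 stood at -8.55 there and between 2.87 and 3.99 elsewhere. Whether this array came from another strain was not tested, and every mean and test over all glucose arrays includes it. The 10 PHO genes are given with and without it. Xylose replicates 1 and 2 were close to each other, with a median absolute difference of 0.0862 (log2) over genes, against 0.455 and 0.484 from xylose replicate 3. Replicates 1 and 2 of both sugars lay on 1 slide and replicate 3 of both on the other.

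The comparison of the sugars asks, by the study's title, which promoters serve for cultivation on xylose. Of the PHO genes PHO84 fell in xylose, and it alone of the 10 passed the test with all arrays. The mean level was lower in xylose for 9 of the 10 and higher for PHO89. The median difference of the 10 genes was -0.88 (log2), against 0.02 over all genes tested. The call of 1 of 10 genes stands beside a background of 1.10% of all genes called lower (65 of 5907), 1.42% called higher and 2.52% called in either direction. At an unadjusted p under 0.05 there were 7 of the 10 PHO genes, beside 975 of the 5907 genes tested. The levels of the sugars did not overlap for 7 of the 10, each of them lower in xylose, beside 10.9% of all genes that were lower in xylose without overlap. Without glucose replicate 2, PHO84, PHO5, SPL2, VTC3 and PHO8 passed, 5 of 10 beside 5.65% of all genes called lower, 5.89% higher and 11.5% in all. With the slide as a block 3 of 10 were called, beside 5.26% of all genes called lower. Blocking on the replicate number called 1 of 10, beside 2.49%. Averaging xylose replicates 1 and 2 as 1 sample left 0 of 10 called by limma, beside 0.0508% of all genes called lower. With that average 5 of 10 had an unadjusted p under 0.05, beside 592 of the 5907 genes tested. With that average and without glucose replicate 2 PHO84 alone was called, and the adjusted p-values of PHO5, SPL2, VTC3 and PHO8 were 0.173, 0.0988, 0.0914 and 0.145.

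**Figure D1:**
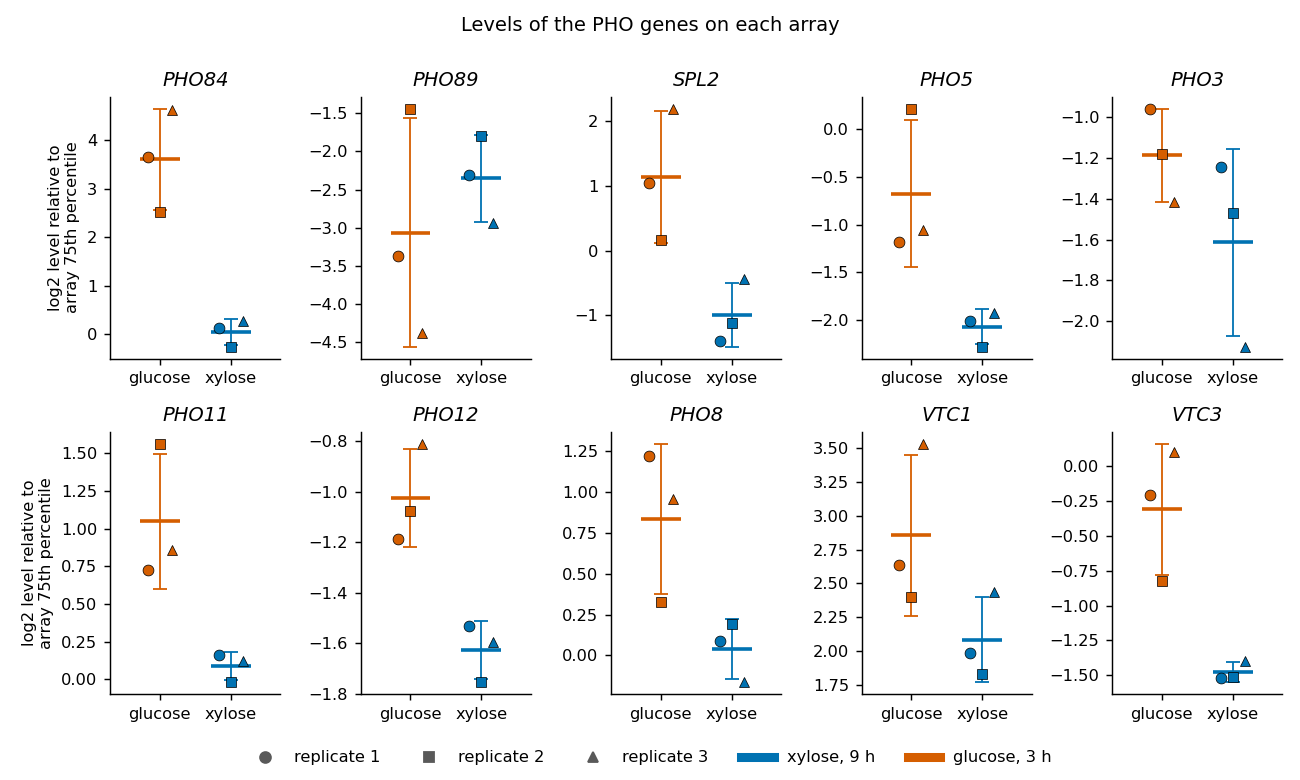
Log2 level of each PHO gene relative to the 75th percentile of the array, per array, with its own scale in each panel. Points are arrays shaped by replicate, lines are group means and bars 1 SD (n = 3 per sugar). PHO84 lies between 2.53 and 4.63 in glucose and between -0.26 and 0.27 in xylose, while the sugars overlap for PHO89, PHO3 and VTC1.

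PHO84 (YML123C), which encodes the high-affinity proton-coupled phosphate transporter of the plasma membrane, had the largest difference of the 10 genes. Its levels in glucose were 3.66, 2.53 and 4.63 in replicates 1 to 3, and in xylose 0.11, -0.26 and 0.27. Every glucose level was above every xylose level, and the nearest levels lay 2.26 apart. The means were 3.61 ± 1.05 in glucose and 0.04 ± 0.27 in xylose (SD, n = 3 each). PHO84 thus fell in xylose, by a log2 difference of -3.57 ± 0.51 (SE), or 11.8-fold lower, with a limma adjusted p = 0.0215. The difference grew to -4.10, or 17.2-fold lower, when glucose replicate 2 was left out (limma adjusted p = 0.00499). Within slide 1 it was -3.17 and within slide 2, with 1 array per sugar, -4.36. The call was lost with xylose replicates 1 and 2 averaged as 1 sample (limma adjusted p = 0.114, difference -3.51), and it was kept when glucose replicate 2 was also left out (0.0290, difference -4.05). Leaving out 1 array also lost it, without xylose replicate 1 (0.124), xylose replicate 2 (0.116), xylose replicate 3 (0.0757) or glucose replicate 1 (0.0772), where the difference lay between -3.68 and -3.41.

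PHO89 (YBR296C), the other high-affinity phosphate transporter, couples uptake to sodium and works at alkaline pH. Its levels were -3.37, -1.44 and -4.39 in glucose and -2.31, -1.80 and -2.94 in xylose. The xylose levels lay inside the range of the glucose levels, whose highest value came from glucose replicate 2. The difference was 0.71 ± 0.72 (SE), with a 95% confidence interval from -0.99 to 2.42 (limma adjusted p = 0.691). Leaving out glucose replicate 2 gave 1.53 (limma adjusted p = 0.0920). With centring on the spike-in controls it was 0.02.

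SPL2 (YHR136C) encodes a small protein that lowers the activity of the low-affinity transporters during phosphate shortage. Its glucose levels were 1.05, 0.16 and 2.20, and its xylose levels -1.40, -1.12 and -0.44. The sugars did not overlap, and replicate 3, on slide 2, was the highest array of each sugar. The log2 difference was -2.12 ± 0.53 (SE), or 4.35-fold lower in xylose, which did not pass with all arrays (limma adjusted p = 0.0965). It passed without glucose replicate 2, at -2.61 (limma adjusted p = 0.0245), and with the slide as a block (0.0235), but not with xylose replicates 1 and 2 averaged (0.338). The difference was -1.87 within slide 1 and -2.64 within slide 2.

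**Figure D2:**
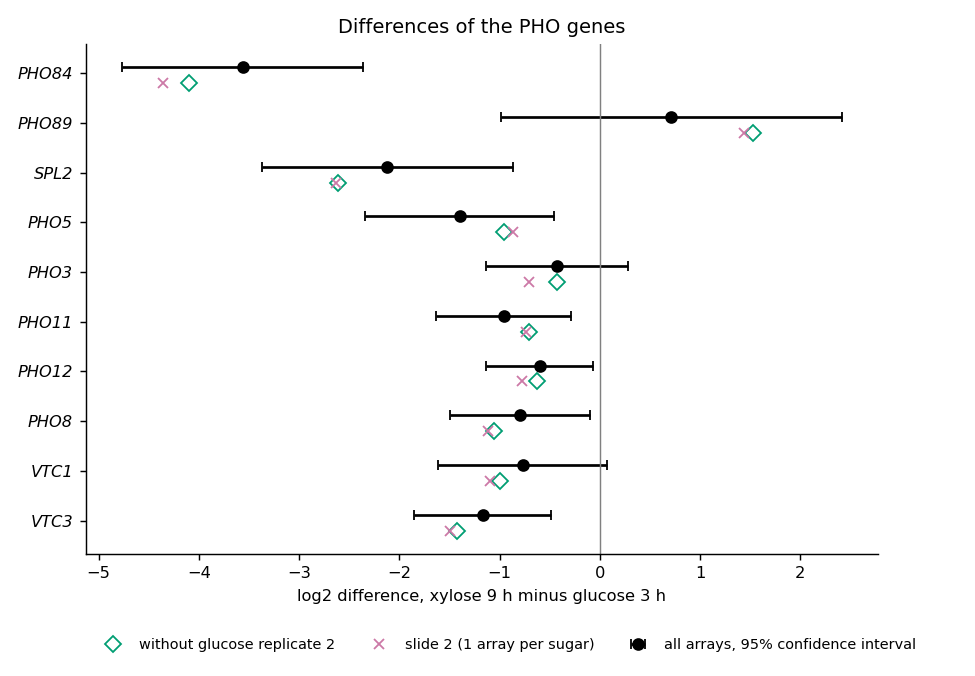
Log2 difference of each PHO gene, xylose at 9 h minus glucose at 3 h. Circles are the differences over all arrays with their 95% confidence intervals, diamonds those without glucose replicate 2 and crosses those within slide 2, which held 1 array per sugar. PHO84 stands farthest from 0 at -3.57, and PHO89 alone is positive, with an interval from -0.99 to 2.42.

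The acid phosphatases are secreted into the periplasm, where they release phosphate from organic esters. PHO5 (YBR093C) encodes the main one that phosphate shortage induces. Its levels were -1.18, 0.22 and -1.06 in glucose and -2.01, -2.28 and -1.93 in xylose. All glucose levels were above all xylose levels, with glucose replicate 2 the highest. The difference was -1.40 ± 0.40 (SE), or 2.64-fold lower in xylose (limma adjusted p = 0.138). Without glucose replicate 2 it was smaller, -0.95, and passed (limma adjusted p = 0.0397).

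PHO3 (YBR092C) lies next to PHO5 in the genome and encodes a related acid phosphatase that phosphate does not repress but thiamine does. Its levels were -0.96, -1.18 and -1.42 in glucose and -1.24, -1.47 and -2.12 in xylose, so the sugars overlapped. Within slide 1 both glucose arrays were above both xylose arrays, and the differences were -0.29 within slide 1 and -0.71 within slide 2. Over all arrays the difference was -0.43 ± 0.30 (SE), with a 95% confidence interval from -1.14 to 0.28 (limma adjusted p = 0.553), and it was -0.42 without glucose replicate 2. Over 6 arrays the correlation of PHO3 with its neighbour PHO5 was r = 0.433, and -0.13 after each group's mean was removed. The arrays share slides and fall into 2 groups, so this and the other correlations below are descriptions.

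PHO11 (YAR071W) and PHO12 (YHR215W) are near-identical subtelomeric copies of an acid phosphatase gene, so each probe may read both and their values are uncertain. PHO11 read 0.73, 1.56 and 0.86 in glucose and 0.16, -0.02 and 0.12 in xylose. PHO12 read -1.19, -1.08 and -0.81 in glucose and -1.53, -1.75 and -1.59 in xylose. Neither overlapped between the sugars, and the xylose arrays of each lay close together, within 0.18 for PHO11 and 0.22 for PHO12. The differences were -0.96 ± 0.29 (SE) for PHO11 (limma adjusted p = 0.148) and -0.60 ± 0.23 for PHO12 (0.244). Leaving out glucose replicate 2 gave -0.70 and -0.63, which did not pass either (limma adjusted p = 0.0603 and 0.115).

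The copies did not share their pattern among the glucose arrays. PHO11 stood 0.77 higher in glucose replicate 2 than in the mean of the other glucose arrays, and PHO12 differed there by -0.08. Over 6 arrays PHO11 correlated with PHO5 at r = 0.995 and with its own copy PHO12 at 0.809. After each group's mean was removed these values were 0.993 and 0.03. Probe sequences were not used here, so whether the PHO11 probe reads PHO5 transcript was not tested.

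PHO8 (YDR481C) encodes the vacuolar alkaline phosphatase. It read 1.22, 0.32 and 0.96 in glucose and 0.09, 0.19 and -0.16 in xylose. The sugars did not overlap, but glucose replicate 2 lay only 0.13 above xylose replicate 2. The difference was -0.80 ± 0.30 (SE, limma adjusted p = 0.238), and without glucose replicate 2 it was -1.05 and passed (0.0349), a 2.07-fold lower level in xylose.

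VTC1 (YER072W) and VTC3 (YPL019C) encode subunits of the vacuolar transporter chaperone complex, which makes polyphosphate from ATP and moves it into the vacuole. VTC3 read -0.21, -0.82 and 0.10 in glucose and -1.52, -1.51 and -1.40 in xylose. The 3 xylose arrays lay within 0.13 of one another and below every glucose array. Its difference was -1.17 ± 0.29 (SE), or 2.24-fold lower in xylose, without a call (limma adjusted p = 0.0954). It was -1.42 and passed without glucose replicate 2 (limma adjusted p = 0.0134), and it passed with the slide as a block (0.0392). With xylose replicates 1 and 2 averaged it did not pass (0.358).

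VTC1 read 2.63, 2.40 and 3.53 in glucose and 1.99, 1.83 and 2.44 in xylose. The sugars overlapped by 0.03, between xylose replicate 3 on slide 2 and glucose replicate 2 on slide 1. Within each slide every glucose array was above every xylose array, with differences of -0.61 and -1.10. The difference over all arrays was -0.77 ± 0.36 (SE, limma adjusted p = 0.340), and without glucose replicate 2 it was -0.998 (0.130).

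The spread among the glucose arrays ran in opposite ways for different PHO genes. Glucose replicate 2 was the lowest glucose array for PHO84, SPL2, VTC3, VTC1 and PHO8. Relative to the mean of the other glucose arrays it stood at -1.62 for PHO84, -1.46 for SPL2, and between -0.77 and -0.68 for the other 3. The same array was the highest for PHO89, PHO5 and PHO11, by 2.45, 1.34 and 0.77. For PHO12 and PHO3 it lay between the others. Over all genes that array was the lowest of the glucose arrays for 37.2% and the highest for 38.8%. The range of glucose levels was larger than that of xylose levels for 9 of the 10 genes, the exception being PHO3 (0.46 against 0.88). Over all genes tested the median SD was 0.46 in glucose and 0.29 in xylose. The part that whatever sets glucose replicate 2 apart plays in these levels was not tested.

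**Figure D3:**
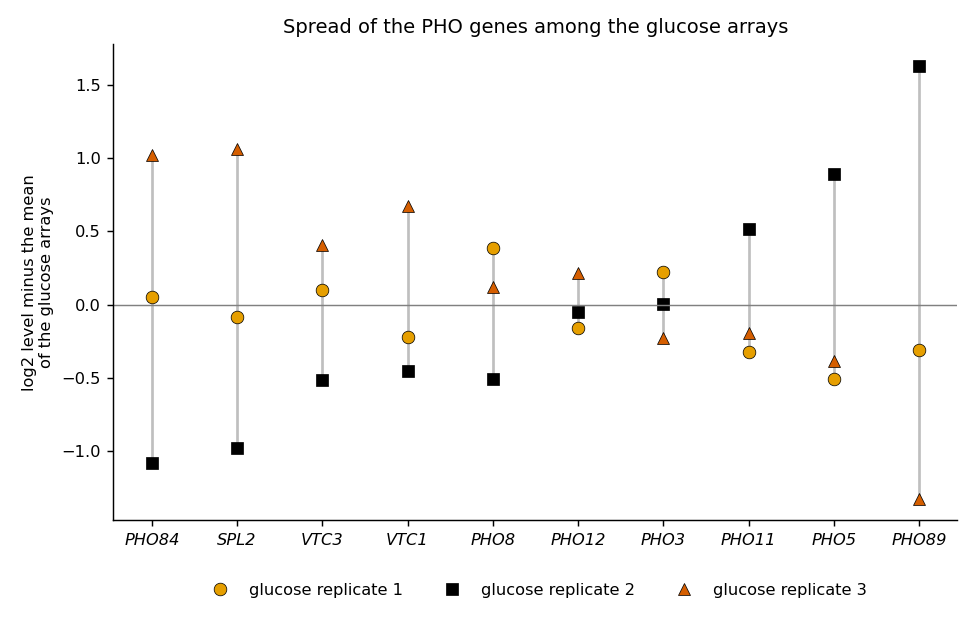
Log2 level of each PHO gene on each glucose array minus the mean of the 3 glucose arrays. Points are arrays and grey lines join the lowest and the highest. Glucose replicate 2, black squares, is the lowest array for the 5 genes on the left and the highest for PHO11, PHO5 and PHO89 on the right.

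Other genes of the phosphate system were taken as lists. The first held 13 further genes reported as targets of the pathway in yeast. Of these, 1 rose, none fell, and the median difference was -0.71, with 11 of 13 differences negative. Leaving out glucose replicate 3 gave a median of -0.32, and normexp background correction one of -0.30. The groups did not overlap for 2 of the 13, or 15.4%, against 23.5% of all genes. The gene that rose was PHM7 (YOL084W), a membrane protein of the family of osmosensitive calcium channels. It read -1.62, -1.02 and -1.65 in glucose and 0.67, 1.38 and 0.998 in xylose, every xylose array being higher. Its difference was 2.44 ± 0.30 (SE, limma adjusted p = 0.0153), the opposite direction to PHO84, beside 1.42% of all genes called higher. It was 2.65 without glucose replicate 2 (limma adjusted p = 0.00614). The call was lost with xylose replicates 1 and 2 averaged (0.0756), and without xylose replicate 1, 2 or 3 or glucose replicate 1 (0.0685, 0.0952, 0.0700 and 0.0668), where the difference lay between 2.26 and 2.62.

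PHM6 (YDR281C), a gene of unknown function that phosphate shortage induces, read -2.19, -5.29 and -1.68 in glucose and -4.80, -5.41 and -5.07 in xylose. Glucose replicate 2 lay among the xylose arrays and the other glucose arrays far above them. With all arrays the difference was -2.04 ± 0.88 (SE, limma adjusted p = 0.309). When that array was left out it was -3.16, or 8.91-fold lower in xylose (limma adjusted p = 0.00499). With normexp background correction of all arrays it was -0.41 (limma adjusted p = 0.846).

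Further genes of polyphosphate synthesis and breakdown also had negative differences. VTC4 (YJL012C), the catalytic subunit, read -1.02, -1.67 and -0.01 in glucose and -2.36, -2.59 and -1.60 in xylose. The sugars overlapped over all arrays, but within each slide every glucose array was higher. The difference of VTC4 was -1.28 ± 0.47 (SE, limma adjusted p = 0.234), and it passed with the replicate number as a block (0.0487) and with the slide as a block (0.0367). VTC2, a regulatory subunit, differed by -0.71, and by -1.18 without glucose replicate 2. The polyphosphatase gene PPN2 (YNL217W) read 0.72, -0.42 and 0.86 in glucose and -0.66, -0.73 and -0.51 in xylose. PPN2 differed by -1.02 ± 0.37 (SE, limma adjusted p = 0.228), and by -1.42 without glucose replicate 2, where it passed (0.0121).

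None of the other 8 targets passed with all arrays. PHO81, the inhibitor of the kinase and itself a target of Pho4, differed by -0.18 ± 0.60 (SE). PHM8, a lysophosphatidate phosphatase, differed by -1.22 ± 0.64, and by -0.66 without glucose replicate 2. GIT1, the glycerophosphoinositol permease, differed by -1.10 ± 0.43. CTF19, a kinetochore gene next to VTC3 in the genome, differed by -1.08 ± 0.45. Of the 3 xylose arrays, 2 gave GIT1 and CTF19 well above background. PHO86, PPN1, HOR2 and GDE1 lay between -0.34 and 0.00.

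The sensing machinery showed no call. Of 11 genes of PHO signalling, limma called 0 with all arrays, beside 2.52% of all genes. At an unadjusted p under 0.05 there was 1, beside 975 of the 5907 genes tested. For 8 of the 11 the 95% confidence interval lay within 2-fold either way, against 34.4% of all genes tested. PHO4, the activator, differed by 0.02 ± 0.26 (SE), with levels of -2.48, -2.44 and -2.61 in glucose and -2.31, -2.27 and -2.89 in xylose. The groups overlapped for PHO4, and its interval ran from -0.59 to 0.63. The cyclin gene PHO80 differed by 0.12 ± 0.32 and the kinase gene PHO85 by 0.10 ± 0.28. PHO2 differed by 0.52 ± 0.39, with an interval from -0.41 to 1.44. CBF1, whose product binds the same core motif as Pho4, differed by 0.42 ± 0.42.

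Among the genes of inositol phosphate signalling, which sets how Pho81 acts, ARG82 had the largest value. It encodes the inositol polyphosphate multikinase and differed by 0.80 ± 0.29 (SE, limma adjusted p = 0.221), with no overlap between the sugars. The inositol pyrophosphate kinase genes KCS1 and VIP1 differed by -0.15 ± 0.29 and -0.36 ± 0.22. The sugars did not overlap for VIP1 either. That makes 2 of the 11 signalling genes without overlap, or 18.2%, against 23.5% of all genes. PLC1, the phospholipase C gene, and the inositol pyrophosphatase genes SIW14 and DDP1 differed by -0.10, -0.01 and -0.03. On the spike-in scale 10 of the 11 genes were negative, where the median of all genes was negative too.

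Another list held 9 further genes of phosphate transport and polyphosphate. With all arrays limma called 0 of them, beside 2.52% of all genes. At an unadjusted p under 0.05 there were 3 of the 9, beside 975 of all 5907 genes. PHO13 (YDL236W), a cytosolic phosphatase that clears side products of metabolism, came closest. It read -0.83, -0.63 and -1.28 in glucose and -2.04, -2.14 and -2.63 in xylose, without overlap. The difference was -1.36 ± 0.29 (SE, limma adjusted p = 0.0623), and it passed without glucose replicate 2 at -1.21 (0.0468). PHO91, the low-affinity transporter of the vacuolar membrane, differed by -0.95 ± 0.29, and the exopolyphosphatase gene PPX1 by -0.73 ± 0.22. With the replicate number as a block PHO13 (limma adjusted p = 0.0344) and PHO91 (0.0477) passed. With the slide as a block these (0.0108 and 0.0163) and PPX1 (0.0296) passed. PHO87 and PHO90, the low-affinity transporters of the plasma membrane, differed by 0.02 and -0.37.

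**Figure D4:**
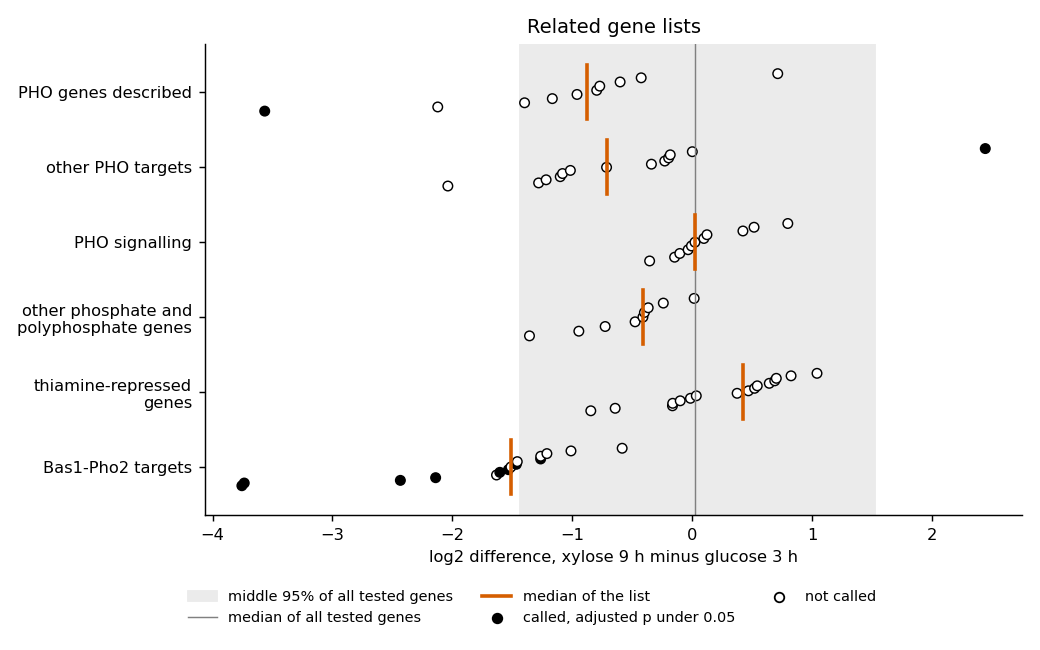
Log2 difference, xylose at 9 h minus glucose at 3 h, of each gene in the PHO genes described and in 5 related lists, with all arrays. Filled points were called at a limma adjusted p under 0.05, orange bars are list medians, and the grey band is the middle 95% of all tested genes, from -1.43 to 1.52. The medians are -0.88 for the PHO genes, 0.02 for PHO signalling and -1.51 for the Bas1-Pho2 targets.

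Pho2 also works with another partner, Bas1, at genes of purine and histidine synthesis and of the folate steps that serve them. In that list of 15 genes 8 fell and none rose, with a median difference of -1.51, beside the 1.10% called lower over all genes. The purine genes ADE17, ADE2 and ADE4 fell, with log2 differences of -3.74, -1.60 and -1.47. The histidine genes HIS4, HIS1, HIS7 and HIS5 fell, with differences of -3.76, -2.43, -2.14 and -1.53. MTD1, a folate enzyme, fell too, at -1.26. ADE1, ADE6 and SHM2 differed by -1.51, -1.01 and -1.21 and passed without glucose replicate 2 (limma adjusted p = 0.0489, 0.0466 and 0.0247). The levels did not overlap for 14 of the 15 genes, ADE8 being the exception, beside 10.9% of all genes lower without overlap. With the replicate number as a block 14 of the 15 were called, beside 2.49% of all genes called lower. With xylose replicates 1 and 2 averaged 1 was called, beside 0.0508%, and without any 1 array other than glucose replicate 2 the count was 1 to 3.

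For PHO3, the thiamine-repressed genes are the closest list. Limma called 0 of 16 with all arrays, beside 2.52% of all genes. At an unadjusted p under 0.05 there was 1, beside 975 of the 5907 genes tested. The median difference of the list was 0.42. Leaving out glucose replicate 2 raised that median to 0.63, and leaving out glucose replicate 3 lowered it to 0.07. Without glucose replicate 2, THI5, THI11 and THI12 passed as higher in xylose, by 1.53, 1.76 and 1.57 (limma adjusted p = 0.0135, 0.0158 and 0.0167), beside 5.89% of all genes. THI13 passed too (limma adjusted p = 0.00906), but it was well above background on 1 of 3 glucose arrays, so no fold is given. These are near-identical copies of 1 thiamine pyrimidine synthesis gene, so they are not independent measurements. THI80, the thiamine pyrophosphokinase gene, differed by -0.85 ± 0.31 (SE). Glucose replicate 2 was the highest glucose array for 14 of the 16 genes, whereas for PHO3 it lay between the others.

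Among the neighbours tested, up to 2 genes to either side of each PHO gene, only TUB3, IMD2 and ARO9 were called. Their share among the neighbours was not computed, so it cannot be set beside the 2.52% of all genes. These genes were named after their values were seen, and most of the neighbours tested were not called. TUB3, an alpha-tubulin gene next to PHO84, differed by -1.38 ± 0.21 (SE, limma adjusted p = 0.0238). The nearest neighbour of PHO12 on the side of the chromosome end is IMD2, an IMP dehydrogenase gene, at -3.10 ± 0.54 (limma adjusted p = 0.0351) and well above background on 2 of 3 xylose arrays. Beside SPL2 lies ARO9, an aromatic aminotransferase gene, at 1.58 ± 0.30 (limma adjusted p = 0.0456), the opposite direction to SPL2. PBY1, on the other side of PHO5 from PHO3, differed by 0.20. PHO11 is the last annotated protein-coding gene of its chromosome, and 3, 7 and 10 such genes lie between PHO12, PHO89 and PHO84 and their nearest chromosome ends.

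Across the 6 arrays the levels most like those of PHO84 belonged to GEF1 (r = 0.998), HIS4 (0.994), HOM3 (0.994), SSA2 (0.994) and MKC7 (0.993), out of all genes tested. After the group means were removed, the highest values were those of GEA1 (0.999), DCK1 (0.998), EGT2 (0.998), ADR1 (0.995) and NSR1 (0.995). Among the PHO genes themselves PHO84 correlated with VTC3 at 0.991, SPL2 at 0.963 and PHO12 at 0.953. It correlated with PHO89 at -0.643. With group means removed PHO84 correlated with VTC3 at 0.972, SPL2 at 0.921 and PHO12 at 0.655. The values of PHO84 were then -0.982 with PHO89 and -0.739 with PHO5.

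Levels were scaled to each array's own transcripts. When the 7 spike-in control probes set the scale instead, the median difference over all genes went from 0.02 to -0.67. The median of the 10 PHO genes was then -1.57. This change of scale shifts the difference of every gene measured on all arrays by the same amount. The place of that median relative to all genes therefore could not change. The shift was downward, so only the sign of PHO89 could have changed, and its difference was 0.02. On that scale PHO84 differed by -4.25 and SPL2 by -2.81, and both passed (limma adjusted p = 6.59e-07 and 0.00601), 2 of 10 beside 1.83% of all genes called lower. PHM7 was at 1.75 there, without a call (limma adjusted p = 0.221). All genes have the same standard error of 0.70 on that scale, so those p-values follow the size of the difference alone.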

How the data were processed

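Groups and replicate numbers came from the sample titles. The authors read each spot's intensity with version 10.1.1.1 of Agilent Feature Extraction, per the submitters' processing notes, and the deposited processed intensity has background subtracted and spatial trend removed, per the file headers. The flags for outlying, saturated and well-above-background spots are as deposited, and no spot was saturated. The authors' deposited table of log2 values came within 0.01 of the levels computed here at every compared value once 1 constant per array was removed, so it is on a log2 scale, rises with the signal and was not centred gene by gene. Its column medians lay between -1.42 and -1.23.

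Of 43792 spots per array, 727 to 1722 flagged as non-uniform or outlying were left out. The log2 processed signal less the array's 75th percentile was averaged over the 7 spots of a probe. Testing covered the 5907 of 6256 probes that had more than 0.5 of their spots well above background on 3 or more arrays; 1 gene had no usable spot on 1 array, which the fit dropped for it. Signals at the 75th percentile ran from 1407 to 3871, and 92.3% to 95.6% of probes were well above background. Symbols came from an R64 gene table by locus tag (5756 probes named, and all 74 genes of the lists). No coordinates or sequences are printed.

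Sugar was the only term of the fit, made with limma's lmFit and eBayes (version 3.58.1, R 4.3.3; tests two-sided). On 5906 genes simulated for this comparison, it called 71% of genes changed by 2 (log2) and 96% of those changed by 4. It also called 7 unchanged genes. The simulated noise was independent between arrays and equally large for both sugars, unlike that of the data, so these shares may not hold here. Same-numbered replicates of the sugars deviated together (r = 0.399, 0.219 and 0.707 over genes). No label says that a number marks a shared culture or day, and the main fit did not pair the samples. Replicates 1 and 2, which share a slide, were not told apart (r = 0.246 between xylose 1 and glucose 2, 0.410 between xylose 2 and glucose 1). The fit with the replicate number as a block is an alternative. Others were the slide as a block, each array left out, slides apart, xylose replicates 1 and 2 averaged, normexp on median spot and background intensities, quantile, median and spike-in centring, outlying spots kept, other filters and the deposited table. Named were all 10 PHO genes, every PHO signalling gene, in each other list those called with all arrays or without 1 array and the 3 with the largest differences, and the genes most like PHO84; other list genes and the neighbours were named after their values were seen. The members and lists were chosen with earlier results of these data known.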

Additional observations from a re-analysis of the deposited data

How the results depend on the processing

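The 9 negative differences of the PHO genes stayed negative, and that of PHO89 positive, in the 20 settings fitted with limma. The blocks and the filters on dim probes leave the difference itself as it is, so its sign could not change there. Median centring, spike-in centring and the deposited table each moved the differences of the PHO genes down by a constant. The 9 negative signs could not change there either. PHO84 was called in 14 of them, with adjusted p-values from 6.59e-07 to 0.142, SPL2 in 3, VTC3 in 2, PHO5 and PHO8 in 1 each. Leaving out each array in turn gave 0 to 5 PHO genes called, 12 to 682 of all genes, 0 to 3 other PHO targets, 0 to 1 further phosphate and polyphosphate genes, 0 to 4 thiamine-repressed genes and 1 to 11 Bas1-Pho2 targets. The most came without glucose replicate 2 and the fewest without a xylose replicate. The replicate block called 310 of all genes, 2 other PHO targets, 2 further phosphate and polyphosphate genes and 14 Bas1-Pho2 targets; it changed the call of no PHO gene described. The slide block called 690, 3 PHO genes (PHO84, SPL2, VTC3), 4, 3 and 14 in the same order of lists. Within slide 1, with 2 arrays per sugar, limma called 0 of all genes, of the PHO genes and of the other lists, with 987 of all genes and 6 of the PHO genes at an unadjusted p under 0.05. With xylose replicates 1 and 2 averaged 12 of all genes, 0 PHO genes, 0 other PHO targets and 1 Bas1-Pho2 target were called. An alternative added after the data were seen, that average without glucose replicate 2, called 97 of all genes, 1 PHO gene, 2 other PHO targets, 1 thiamine-repressed gene and 4 Bas1-Pho2 targets. Normexp moved the median difference of all genes from 0.02 to 0.22 and called 53 of them and 5 Bas1-Pho2 targets. Quantile and median centring each called 1 further phosphate gene, PHO13. Spike-in centring called 2 PHO genes and 131 of all genes, 23 higher and 108 lower against 84 and 65. The cause of these changes was not tested.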
